A study of Homo sapiens with 8 samples.

Results

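The T-lineage surface antigens described here are 9 genes that encode proteins displayed on T cells and their precursors: PTPRC, CD2, CD4, CD5, CD6, CD7, CD28, CD38 and CD99. They were taken by gene symbol from a table of read counts for 63677 genes, in which 11 rows carry one of these symbols. PTPRC and CD4 each have an additional row with 0 counts in every library. The remaining 9 rows, 1 for each gene, all passed the filter on low counts and were among the 15646 genes tested. The cells were Jurkat, a line long established from human T-ALL (acute lymphoblastic leukaemia of T-cell origin), carrying the TAL1-FKBP12 fusion in all 4 groups, controls included. TAL1 is a transcription factor that acts in this leukaemia, and dTAG-13 directs FKBP12-tagged proteins to degradation. GSI commonly stands for gamma-secretase inhibitor, a drug class that prevents the cleavage that activates NOTCH receptors. The groups received the solvent DMSO, dTAG-13, GSI, or dTAG-13 with GSI (the combination), and each had 2 libraries of total RNA taken at 24 hours. The labels name no doses and do not say whether replicates were separate cultures, so the spread behind each p-value is that of these libraries and may be technical. All values come from 1 cell line.

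Total counts per library ran from 17544319 to 22180009. Of 12 T cell markers, 11 had a mean above 1 CPM (read counts corrected for library size, with totals scaled by the TMM method). They summed to 4224 to 4786 CPM per library. The row with the symbol TRBC1 was at 0, as was an additional row of TRBC2, so this 0 may not measure TRBC1 expression. With GSI on average, TRAC rose (log2 fold change 1.41), TCF7 (-0.23) and CD3D (-0.37) fell, and 8 of the 11 did not pass. Of all tested genes, 3.38% were called higher and 3.56% lower. The part of these markers in the GSI differences below was not tested. DTX1, a NOTCH target, stood at 138 to 154 CPM with DMSO and at 99.5 to 105 CPM with dTAG-13. In libraries with GSI it stood at 17.0 to 19.7 CPM. TAL1 transcript ranged from 145 to 166 CPM in libraries without GSI and from 197 to 208 CPM with it. The tag acts on the protein, which was not measured, so the transcript does not check the degradation. Among markers of other cell types, 5 of 10 for B cells had a mean above 1 CPM, while MS4A1 and PAX5 stayed at or below 0.192 CPM. The mean was above 1 CPM for 3 of 8 NK cell markers and for 1 of 12 epithelial and stromal markers. It was so for 2 of 14 erythroid and megakaryocytic markers, with EPOR highest at 15.4 CPM. Of 12 myeloid markers only CST3, a gene expressed in many cell types, had a mean above 1 CPM. The sum of the 10 B cell markers lay between 335 and 490 CPM in libraries with GSI and between 236 and 288 CPM in the others, nearly all from IGLL1 and CD79A. Of the 5 tested, 3 rose with GSI on average, beside 3.38% of all tested genes. For the 8 NK cell markers the sum lay between 27.9 and 32.2 CPM with GSI and between 23.2 and 27.3 CPM in the others. Of the 3 tested, only PRF1 rose with GSI on average, beside 3.38% of all tested genes. NKG7, the highest, did not pass (log2 fold change 0.00038). The part of either list in the GSI differences below was not tested. In bulk RNA, fewer cells of a type and less RNA per cell cannot be told apart.

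These antigens divide the work of T cell recognition. PTPRC (CD45) is a receptor-type tyrosine phosphatase that sets the activity of the kinase LCK, while CD4 brings LCK to the antigen receptor and CD2 and CD28 deliver adhesion and costimulatory signals. CD5 and CD6 are scavenger-receptor proteins that restrain antigen receptor signals, CD7 appears on the earliest T cell precursors, CD38 is an ectoenzyme that consumes NAD, and CD99 is an adhesion glycoprotein of immature thymocytes. CD2, CD5 and CD7 are among the antigens commonly used in assigning leukaemic blasts to the T lineage. PTPRC, CD38 and CD99 appear on many types of blood cell.

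With DMSO, all 9 genes were expressed. Divided by exonic length in GENCODE 29, an annotation other than the one behind the counts, the mean level was 83.1 CPM per kilobase for CD7, 62.7 for CD99, 46.5 for CD5 and 39.9 for CD2. PTPRC followed at 19.1 CPM per kilobase, then CD28 at 13.1, CD4 at 12.8, CD6 at 9.09 and CD38 at 2.70. In that order only CD28 and CD4 overlapped between the 2 DMSO libraries (12.9 to 13.2 and 10.8 to 14.7 CPM per kilobase).

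**Figure D1:**
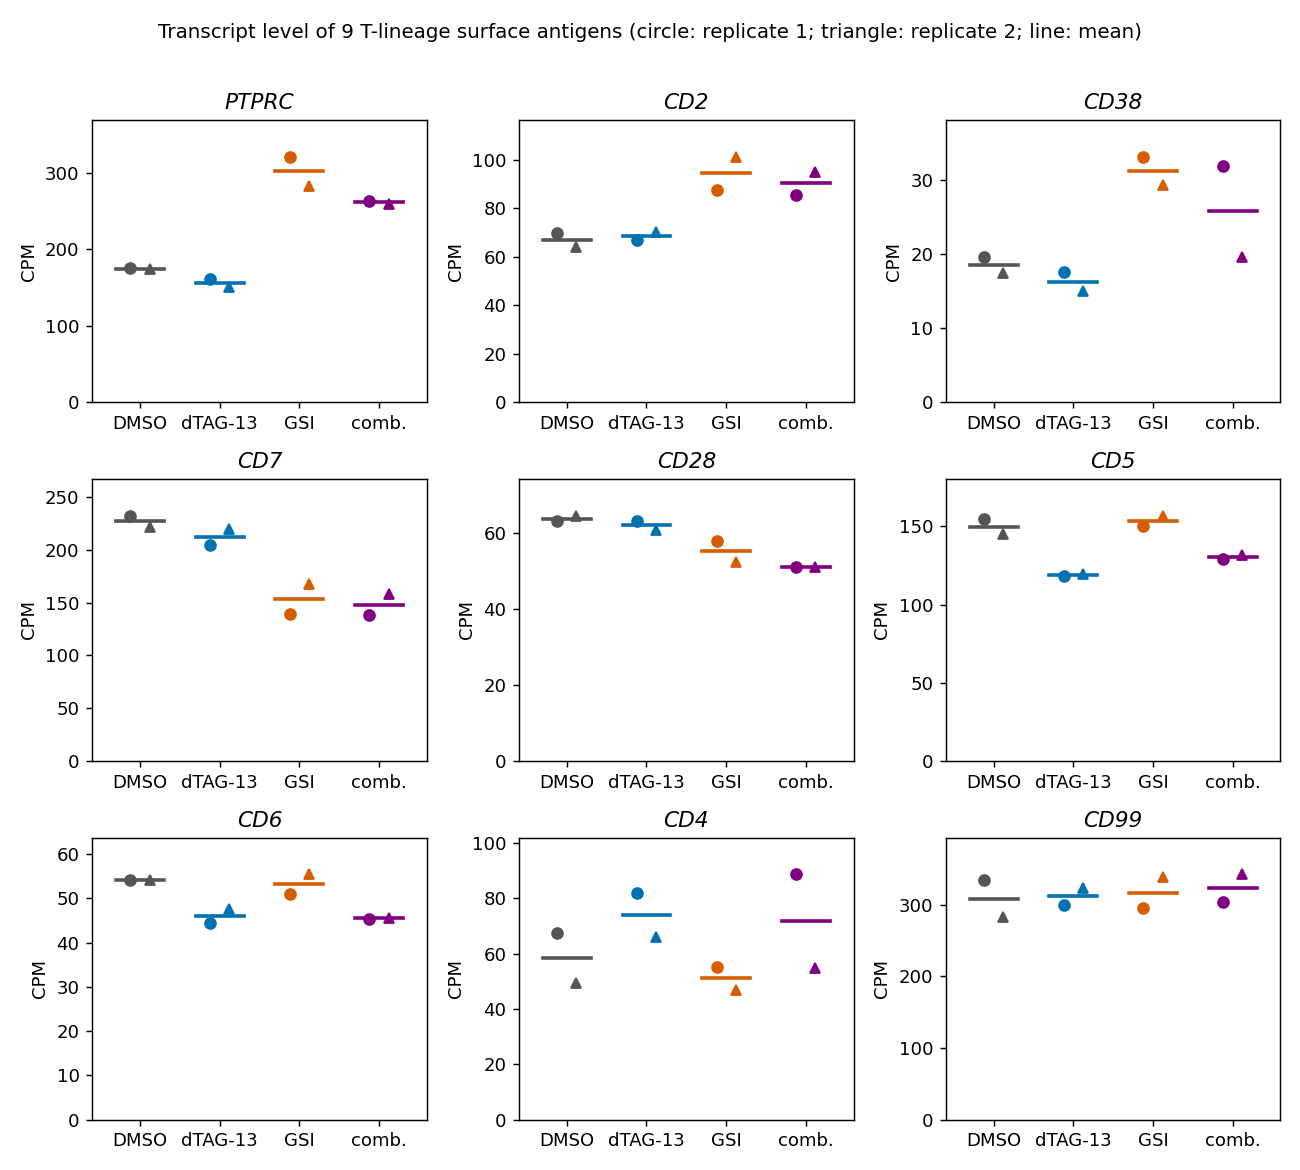
Each panel plots the CPM of 1 gene (vertical axis, from 0) in the 8 libraries by treatment. Circles are replicate 1, triangles replicate 2 and lines the mean of 2. PTPRC, CD2 and CD38 are higher and CD7 and CD28 lower in all 4 libraries with GSI than in all 4 without, CD5 and CD6 are lower in all 4 libraries with dTAG-13 than in the 4 without, and CD4 differs widely between replicates.

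The effect of GSI was measured in cells without dTAG-13 (GSI against DMSO) and in cells with it (combination against dTAG-13), 2 comparisons that share no library, and as the average of both, which sets 4 libraries against 4. On average, 3 members rose with GSI (PTPRC, CD2 and CD38), 2 fell (CD7 and CD28), and 4 (CD4, CD5, CD6 and CD99) did not pass the test. All 9 had the same sign in the comparison without dTAG-13 as in the one with it, against 70.1% of all tested genes. The threshold was an adjusted p of 0.05 in edgeR's quasi-likelihood test. By the same rule, 3.38% of all tested genes were called higher and 3.56% lower, 6.94% in all. The same 5 members had no overlap between the 4 libraries with and the 4 without GSI, as had 15.2% of all genes, 7.00% higher and 8.22% lower. The median log2 fold change of the 9 members was 0.05, beside 0.01 for all tested genes.

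PTPRC had the lowest adjusted p of the 9. Its level was 176 and 174 CPM in the DMSO libraries, 161 and 151 CPM with dTAG-13, 321 and 283 CPM with GSI, and 264 and 260 CPM with the combination. The 4 groups did not overlap, in the order GSI, combination, DMSO and dTAG-13. PTPRC rose 1.73-fold against DMSO (log2 fold change 0.79, SE 0.08, adjusted p = 4.32e-04) and 1.68-fold in cells with dTAG-13 (0.75, SE 0.08, adjusted p = 7.24e-04). The average of both was 0.77 (SE 0.06, adjusted p = 1.34e-05), and the call held whichever of the 8 libraries was left out.

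CD2, the adhesion receptor that binds CD58, was at 69.9 and 64.0 CPM with DMSO and at 66.9 and 70.2 CPM with dTAG-13. It was at 87.6 and 101 CPM with GSI and at 85.4 and 95.1 CPM with the combination. Every library with GSI lay above every library without it. CD2 rose against DMSO (log2 fold change 0.50, SE 0.10, adjusted p = 0.023), with dTAG-13 present it stood at 0.40 (SE 0.10, adjusted p = 0.0809), and on average it rose 1.36-fold (0.45, SE 0.07, adjusted p = 0.00221). The averaged call held without any 1 of the 8 libraries. Against DMSO, CD2 lost its call in the absence of GSI replicate 2, of DMSO replicate 1 or of DMSO replicate 2 (log2 fold change 0.39 to 0.60 and adjusted p up to 0.366 over the 4 libraries left out in turn).

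CD38, the NAD-consuming ectoenzyme, was the least abundant member, with 321 to 706 counts per library. It was at 19.6 and 17.4 CPM in DMSO libraries, 17.6 and 15.0 CPM with dTAG-13, 33.1 and 29.4 CPM with GSI, and 31.9 and 19.7 CPM with the combination. Combination replicate 2 lay just above the highest library without GSI, so the groups did not overlap but nearly touched. The single comparisons did not pass (log2 fold change 0.76, SE 0.18, adjusted p = 0.0683 against DMSO, and 0.66, SE 0.19, adjusted p = 0.132 in cells with dTAG-13). On average CD38 rose 1.64-fold (0.71, SE 0.13, adjusted p = 0.00698). That call was lost without DMSO replicate 2 (adjusted p = 0.0667). Without combination replicate 2, the low library of that group, CD38 was called higher with the combination against dTAG-13 (0.97, adjusted p = 0.00721) and against DMSO (0.79, adjusted p = 0.0198). DESeq2 called CD38 higher in both single comparisons (adjusted p = 0.00673 and 0.0342).

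CD7, the early T-lineage antigen, went the other way. It was at 233 and 222 CPM with DMSO, then 205 and 220.3 CPM with dTAG-13, 139 and 168 CPM with GSI, and 139 and 158 CPM with the combination. The lowest library without GSI was above the highest with it. CD7 fell against DMSO (log2 fold change -0.57, SE 0.10, adjusted p = 0.0139) and in cells with dTAG-13 (-0.52, SE 0.10, adjusted p = 0.0301), and on average it fell 1.46-fold (-0.54, SE 0.07, adjusted p = 8.23e-04). The averaged call held without any 1 of the 8 libraries. Against DMSO, CD7 lost its call in the absence of GSI replicate 1, of DMSO replicate 1 or of DMSO replicate 2 (log2 fold change -0.71 to -0.44, adjusted p up to 0.203). In cells with dTAG-13 it was lost in the absence of combination replicate 1 or of either dTAG-13 replicate, 1 or 2 (-0.61 to -0.42, up to 0.359), and when the fit held only the dTAG-13 and combination libraries (0.0559).

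CD28, the costimulatory receptor for CD80 and CD86, showed a smaller difference. It was at 63.1 and 64.6 CPM with DMSO, then 63.1 and 60.9 CPM with dTAG-13, 57.9 and 52.5 CPM with GSI, and 51.2 CPM in both libraries of the combination. All 4 libraries with GSI were below all 4 without. On average CD28 fell 1.18-fold (log2 fold change -0.24, SE 0.06, adjusted p = 0.0301), while GSI against DMSO (-0.21, SE 0.08, adjusted p = 0.284) and the combination against dTAG-13 (-0.28, SE 0.08, adjusted p = 0.175) did not pass. The averaged call held only without combination replicate 2 or GSI replicate 1. It was lost in the absence of GSI replicate 2, of combination replicate 1, and of either replicate, 1 or 2, of DMSO and of dTAG-13. Over all 8 libraries left out in turn the log2 fold change stayed between -0.28 and -0.21, and the adjusted p reached 0.146.

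By comparison, GSI against DMSO called 2 members higher and 1 lower, where 0.876% and 0.863% of all genes were called (1.74% in all). The combination against dTAG-13 called PTPRC higher and CD7 lower, where 0.639% and 0.569% of all genes were called (1.21% in all). Leaving out libraries changed these counts: GSI against DMSO kept only PTPRC without DMSO replicate 1 or DMSO replicate 2. The combination against dTAG-13 kept only PTPRC in the absence of combination replicate 1 or of either dTAG-13 replicate, 1 or 2.

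RefSeq promoter sequences of the GRCh38.p14 build were matched by symbol for 5 of the 9 members: PTPRC, CD2, CD28, CD38 and CD99. The 250 bases before the start of the 4 that were called with GSI are shown because NOTCH acts on DNA through RBPJ, whose motif has the core TGGGAA. All 4 lie on the plus strand and are written 5′ to 3′, with TGGGAA or its reverse complement in capitals.
PTPRC, chr1:198638790-198639039: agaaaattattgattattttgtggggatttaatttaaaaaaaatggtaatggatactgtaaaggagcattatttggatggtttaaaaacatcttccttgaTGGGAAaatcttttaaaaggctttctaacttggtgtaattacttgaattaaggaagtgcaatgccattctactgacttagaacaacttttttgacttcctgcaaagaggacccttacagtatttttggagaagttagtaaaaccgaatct
CD2, chr1:116754180-116754429: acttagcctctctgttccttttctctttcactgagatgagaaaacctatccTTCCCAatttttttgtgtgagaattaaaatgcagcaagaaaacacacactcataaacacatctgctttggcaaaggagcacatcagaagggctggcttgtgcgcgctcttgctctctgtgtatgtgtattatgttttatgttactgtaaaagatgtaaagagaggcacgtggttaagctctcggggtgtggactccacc
CD38, chr4:15778078-15778327: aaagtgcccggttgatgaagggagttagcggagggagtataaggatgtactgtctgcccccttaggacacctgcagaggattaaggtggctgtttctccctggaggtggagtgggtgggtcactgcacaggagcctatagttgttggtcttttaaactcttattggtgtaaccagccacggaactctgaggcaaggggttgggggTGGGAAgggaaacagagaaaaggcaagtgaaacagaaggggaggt
CD28, chr2:203706389-203706638: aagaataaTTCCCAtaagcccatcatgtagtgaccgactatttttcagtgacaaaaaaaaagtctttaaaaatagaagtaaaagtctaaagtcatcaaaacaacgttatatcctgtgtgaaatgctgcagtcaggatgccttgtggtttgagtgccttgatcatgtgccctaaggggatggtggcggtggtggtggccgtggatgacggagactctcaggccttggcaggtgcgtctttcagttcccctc
Each of these 4 windows held the core once, beginning 150 bases before the start in PTPRC, 199 in CD2, 45 in CD38 and 242 in CD28, and the CD99 window did not hold it. Of 35086 promoter windows of this length, 20.9% hold the core on either strand. Among these 4 are 3 members that rose and 1 that fell, and a match of letters is a description and not a binding site. An E-box (CANNTG, the motif of TAL1 and its E-protein partners) was present in CD2, CD28 and CD38, beside 61.8% of all windows. TGTGGT, the RUNX motif, was present in CD28 alone of the 5, beside 11% of all windows, and GATAA, the GATA motif, in none of the 5, beside 20.5%. These motifs were searched on both strands, and no overlap between motifs was taken into account.

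**Figure D2:**
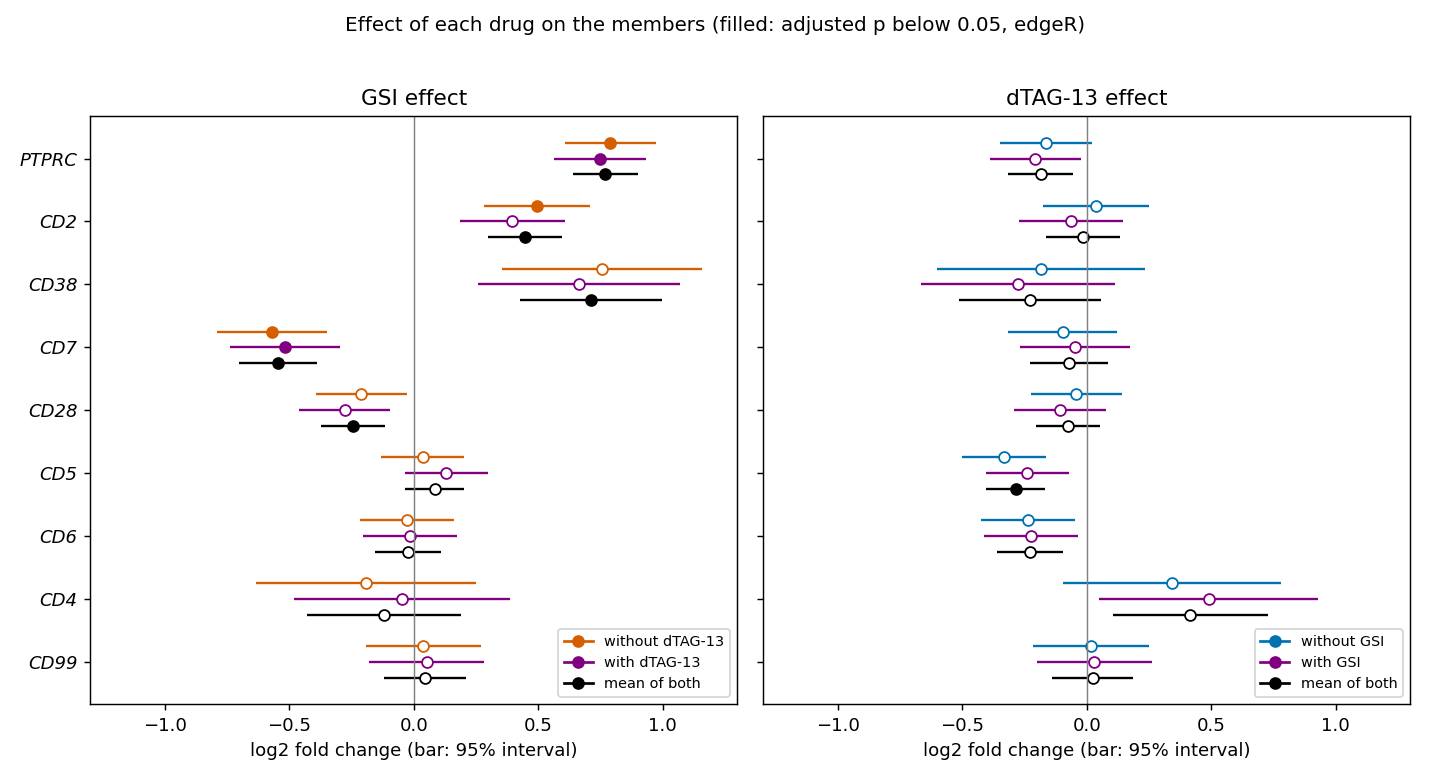
Log2 fold changes (horizontal axis) of the 9 members for GSI (left) and dTAG-13 (right), in cells without the other drug, with it, and as the mean of both. Bars are 95% intervals from the fit, and filled points have an adjusted p below 0.05. The GSI effects of PTPRC, CD2 and CD38 lie on the right of 0 and those of CD7 and CD28 on the left, while the dTAG-13 effect is called for CD5 only, at -0.29 on average.

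The effect of dTAG-13 was measured likewise without GSI (dTAG-13 against DMSO), with GSI (combination against GSI) and as the average of both. On average, CD5 fell, 0 members rose and 8 did not pass, where 0.422% of all genes were called lower and 0.0767% higher, 0.499% in all. The edgeR test called 0 members in either single comparison, where 0.0192% (all lower) and 0.0575% (0.0192% higher and 0.0383% lower) of all genes were called. At an unadjusted p below 0.05 there were 2 members in dTAG-13 against DMSO, beside 601 of 15646 genes. In the combination against GSI there were 4, beside 648 genes. DESeq2 run on the same counts here also called 0 members in both. Signs matched between the 2 comparisons for 8 of 9 members, against 57.0% of all genes. The median of the 9 averaged log2 fold changes was -0.08, and that of all genes 0.00256.

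CD5, an inhibitory co-receptor whose level follows antigen receptor signal strength, was at 155 and 145 CPM with DMSO and at 118 and 119.5 CPM with dTAG-13. It was at 150.5 and 157 CPM with GSI and at 129 and 132 CPM with the combination. DMSO and GSI overlapped, and all 4 libraries with dTAG-13 were below all 4 without. On average CD5 fell 1.22-fold (log2 fold change -0.29, SE 0.05, adjusted p = 0.0402). The single comparisons were at -0.33 (SE 0.08, adjusted p = 0.325) without GSI and -0.24 (SE 0.08, adjusted p = 0.886) with it. Leaving out any 1 of the 8 libraries ended the averaged call, with log2 fold changes between -0.31 and -0.26 and adjusted p from 0.0596 to 0.348. This held for replicate 1 and for replicate 2 of each of the 4 groups. The authors' deposited table of dTAG-13 against DMSO gives CD5 a log2 fold change of -0.33 (SE 0.08) and an adjusted p of 0.0302, 1 of 32 genes below 0.05 there.

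CD6, the receptor for ALCAM and a relative of CD5, is its next protein-coding neighbour on chromosome 11 in RefSeq. It was at 54.1 and 54.3 CPM with DMSO, then 44.5 and 47.5 CPM with dTAG-13, 50.9 and 55.4 CPM with GSI, and 45.4 and 45.6 CPM with the combination. As for CD5, the 4 libraries with dTAG-13 were all below the 4 without, and DMSO and GSI overlapped. The averaged log2 fold change of -0.23 (SE 0.06) had an unadjusted p of 0.00263 and an adjusted p of 0.228, and did not pass. CD5 and CD6 were the 2 members without overlap between libraries with and without dTAG-13, both lower, a pattern that 1.55% of all genes had in that direction and 1.07% in the other (2.63% in all).

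CD4, the co-receptor for MHC class II, was at 67.6 and 49.5 CPM with DMSO and at 82.0 and 66.1 CPM with dTAG-13. It was at 55.3 and 46.8 CPM with GSI and at 88.7 and 54.7 CPM with the combination. In all 4 groups the library numbered 1 was above the library numbered 2. Libraries with and without dTAG-13 overlapped. The averaged log2 fold change was 0.42 (SE 0.14, adjusted p = 0.562), the single comparisons 0.34 (SE 0.20) without GSI and 0.49 (SE 0.20) with it, and CD4 did not pass in any of them. The 95% interval of the average ran from 0.11 to 0.73.

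PTPRC had an averaged dTAG-13 log2 fold change of -0.19 (SE 0.06), with an unadjusted p of 0.00854 and an adjusted p of 0.472. For the other members the averaged values were -0.23 (SE 0.13) for CD38, -0.08 (SE 0.06) for CD28, -0.07 (SE 0.07) for CD7, -0.01 (SE 0.07) for CD2 and 0.02 (SE 0.08) for CD99, and none passed.

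CD99 was at 334 and 282 CPM with DMSO, then 300.1 and 324 CPM with dTAG-13, 295 and 338 CPM with GSI, and 304 and 342 CPM with the combination. All 4 groups overlapped. The averaged log2 fold change was 0.05 (95% interval -0.12 to 0.21) for GSI and 0.02 (-0.14 to 0.19) for dTAG-13. CD99 lies in a region shared by the sex chromosomes, and how the authors counted reads that fit both copies is not given in the sources used here.

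Against DMSO, the combination called PTPRC higher and CD7 lower, where 0.543% and 0.767% of all genes were called (1.31% in all). PTPRC rose (log2 fold change 0.58, SE 0.08, adjusted p = 0.00412) and CD7 fell 1.53-fold (-0.62, SE 0.10, adjusted p = 0.0101). CD2 was at 0.43 (SE 0.10, adjusted p = 0.057), CD38 at 0.48 (SE 0.19, adjusted p = 0.305), CD28 at -0.32 (SE 0.08, adjusted p = 0.109), CD6 at -0.25 (SE 0.09, adjusted p = 0.234) and CD5 at -0.20 (SE 0.08, adjusted p = 0.295). Both calls were lost without DMSO replicate 1 or DMSO replicate 2, and that of CD7 also without combination replicate 1 (adjusted p up to 0.144 for PTPRC and 0.168 for CD7). This comparison uses the same DMSO libraries as the comparisons of each drug alone.

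Whether the drugs combined other than by adding up on the log2 scale was tested as the departure from the sum of both single effects. The edgeR test and DESeq2 each called 0 of the 9 members and 0 of 15646 genes, and 0 members had an unadjusted p below 0.05, against 260 genes in all. The departure was -0.04 for PTPRC (95% interval -0.30 to 0.22), -0.10 for CD2 (-0.40 to 0.20), 0.05 for CD7 (-0.26 to 0.36), -0.07 for CD28 (-0.33 to 0.19) and 0.09 for CD5 (-0.14 to 0.33). It was less well bounded for CD38 (-0.09, -0.66 to 0.48) and CD4 (0.15, -0.47 to 0.77). For every member listed here the interval reaches beyond the size of its own effect in at least 1 single comparison. Such effects were -0.21 for CD28 with GSI, and 0.34 for CD4 and -0.16 for PTPRC with dTAG-13. The intervals of PTPRC, CD2, CD7 and CD38 did not reach the size of their GSI effects against DMSO (0.79, 0.50, -0.57 and 0.76). For CD2 the interval, from -0.398, did reach the size of its GSI effect in cells with dTAG-13 (0.396).

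In the authors' deposited table of GSI against DMSO, PTPRC (log2 fold change 0.78, adjusted p = 1.24e-09), CD2 (0.48, adjusted p = 0.0158), CD38 (0.74, adjusted p = 0.00151) and CD7 (-0.58, adjusted p = 4.08e-04) were below 0.05. In the authors' deposited table of the combination against DMSO these were PTPRC (0.58, adjusted p = 1.05e-06), CD2 (0.43, adjusted p = 0.0333) and CD7 (-0.62, adjusted p = 3.25e-06). Of the genes given an adjusted p, 243 of 12688 were below 0.05 with GSI and 193 of 12726 with the combination. The authors' tables thus hold CD38 with GSI and CD2 with the combination among genes below 0.05, where the edgeR values above missed it. They come from the same libraries and are not an independent measurement.

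The wider set of surface antigens was described through a list of 49 other lymphocyte surface antigens, of which 41 were tested. On average over both backgrounds, 5 rose with GSI, 5 fell and 31 did not pass (median log2 fold change -0.02, beside 0.01 for all genes, of which 3.38% were called higher and 3.56% lower). Among the increases were CD69, an early activation antigen (0.72, SE 0.13, adjusted p = 0.0065), CD52, a GPI-anchored glycoprotein (0.59, SE 0.11, adjusted p = 0.00809), and CD96, a receptor of the nectin-binding family (0.51, SE 0.07, adjusted p = 5.91e-04). The 4 largest decreases were CD55, which protects cells from complement (-0.73, SE 0.11, adjusted p = 0.00161), CD40LG, the CD40 ligand (-0.45, SE 0.06, adjusted p = 9.42e-04), CD3D, a chain of the antigen receptor complex (-0.37, SE 0.10, adjusted p = 0.0368), and TFRC, the transferrin receptor (-0.29, SE 0.07, adjusted p = 0.0279). With dTAG-13, 3 of the 41 fell on average and 0 rose, where 0.422% of all genes were called lower and 0.0767% higher. They were CD40LG (-0.89, SE 0.06, adjusted p = 5.72e-05), CD69 (-0.76, SE 0.13, adjusted p = 0.029) and CD82, a tetraspanin (-0.36, SE 0.07, adjusted p = 0.0343). CD69 thus rose with GSI and fell with dTAG-13, while CD40LG fell with both.

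**Figure D3:**
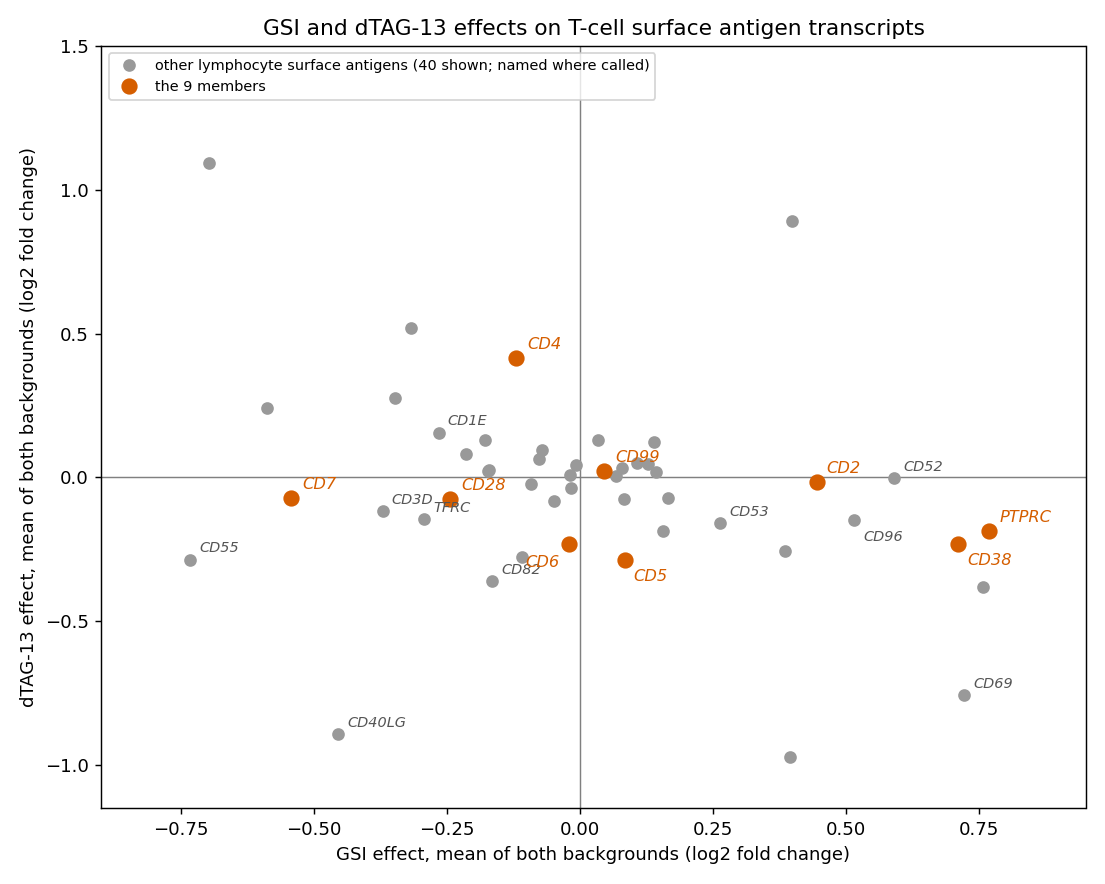
Each point is 1 gene, with its averaged GSI effect on the horizontal axis and its averaged dTAG-13 effect on the vertical axis (log2 fold changes). The 9 members are orange and other tested lymphocyte surface antigens grey, named where called for either drug, with 1 of the 41 not drawn. PTPRC, CD38 and CD2 lie far to the right, CD7 lies to the left and CD5 and CD6 near the middle. On the vertical axis CD5, CD6, CD38 and PTPRC lie below 0, at -0.29, -0.23, -0.23 and -0.19.

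Ligands of the members were measured in the same cells. Of 11 tested ligands, 2 rose with GSI on average, 0 fell and 9 did not pass (median 0.04, beside 0.01 for all genes, of which 3.38% were called higher and 3.56% lower). LGALS1, galectin-1, which binds sugars on CD45 and CD7, went from a mean of 6.10 CPM with DMSO to 15.3 CPM with GSI, and from 7.68 CPM with dTAG-13 to 14.7 CPM with the combination (averaged log2 fold change 1.14, SE 0.12, adjusted p = 2.16e-04). IL16, a secreted ligand of CD4, had means of 13.04 CPM with DMSO, 9.27 with dTAG-13, 21.3 with GSI and 16.5 with the combination. It rose with GSI (0.77, SE 0.08, adjusted p = 1.12e-04) and was the 1 ligand that fell with dTAG-13 on average (-0.43, SE 0.08, adjusted p = 0.0361). CD58, the ligand of CD2, was at 0.04 (SE 0.10) and ALCAM, the ligand of CD6, at 0.17 (SE 0.11) with GSI, and neither passed.

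All 32 genes in a list of cytoplasmic partners were tested. With GSI on average 6 rose, 0 fell and 26 did not pass (median 0.14, beside 0.01 for all genes, of which 3.38% were called higher and 3.56% lower). The 4 with the largest increases were PSTPIP1, an adaptor of the CD2 tail (0.53, SE 0.12, adjusted p = 0.0241), UBASH3B, a phosphatase that dampens T cell receptor signals (0.51, SE 0.06, adjusted p = 4.60e-04), PTPRCAP, the CD45-associated protein (0.47, SE 0.12, adjusted p = 0.0321), and GRAP2, the adaptor GADS, which binds the CD28 tail (0.38, SE 0.06, adjusted p = 0.00274). PTPRCAP had means of 178 CPM with DMSO, 166 with dTAG-13, 255 with GSI and 221 with the combination. This is the order of groups seen for PTPRC, and PSTPIP1, UBASH3B and GRAP2 had it too, so it is not particular to PTPRCAP. Of the kinases that CD45 and CD4 act with, LCK (-0.18, SE 0.07, adjusted p = 0.128), FYN (-0.06, SE 0.06, adjusted p = 0.584) and CSK (-0.10, SE 0.07, adjusted p = 0.426) did not pass. HNRNPLL, a splicing factor of PTPRC exons, did not pass either (0.14, SE 0.08, adjusted p = 0.336). With dTAG-13, LCP2, the scaffold SLP-76, fell on average (-0.35, SE 0.07, adjusted p = 0.0397), and 31 did not pass, where 0.422% of all genes were called lower. LCP2 was also among the 6 partners that rose with GSI (0.32, SE 0.07, adjusted p = 0.0125).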

How the data were processed

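RNA of 8 libraries was sequenced from stranded libraries read from both ends. Per the submitters' processing notes, STAR 2.5.2a, featureCounts, DESeq2 1.12.4 and hg19 were used; which annotation and strand setting served for counting is not stated in those notes, and overlapping genes were not separated. The authors deposited whole-number counts per gene. The authors also deposited a table per treatment against DMSO, with a log2 fold change and its error, a score that is their ratio, and each p-value.

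Genes were kept with filterByExpr, which left 15646 genes with at least 99.89% of each library's counts. After TMM scaling, the 8 libraries entered 1 quasi-likelihood model with a mean for each of 4 groups (edgeR 4.0.16, R 4.3.3, robust, 4 residual degrees of freedom). F-tests were 2-sided, with Benjamini-Hochberg adjustment over all tested genes for each of 8 comparisons. SE is the log2 fold change divided by the square root of F. Intervals are at the 95% level. Alternatives were DESeq2 1.42.0, its size factors, no filter, a replicate block, the 4 compared libraries alone and leaving out each library. The test was also run on simulated counts drawn independently for each library. How often it found differences as small as those of the members is not reported here.

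The members and lists were chosen with earlier results of these data known. From each list, up to 4 called genes in each direction with a mean of at least 1 CPM are named; CD58, ALCAM, LCK, FYN, CSK and HNRNPLL are named for their role, and PRF1 as a marker that moved, all after their values were seen. Results of 2 listed genes are not reported here.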

Additional observations from a re-analysis of the deposited data

How the results depend on the processing

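No member changed sign with DESeq2, with its size factors, without the filter on low counts, in the fit of the compared libraries alone or with the replicate block. Apart from the size factors, each of these settings added CD38 to the members called in GSI against DMSO. Each of the same settings added CD2 in the combination against DMSO. Members called in GSI against DMSO numbered 3, and 1 to 2 with a library left out. For the averaged GSI effect they numbered 5, and 3 to 5. The combination against DMSO called 2, 4 without the filter on low counts, and 0 to 3 with a library left out. The combination against dTAG-13 called 2; it called 4 with DESeq2, 4 without the filter, 4 with the replicate block, 1 in the fit of the compared libraries alone and 1 to 3 with a library left out. dTAG-13 against DMSO called 0, 1 (CD5) in the fit of the compared libraries alone and 0 with any library left out. The averaged dTAG-13 effect called 1, and 0 with any library left out. The combination against GSI and the departure called 0 under every setting. The cause of these shifts was not tested, beyond the smaller number of libraries where some were left out.

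The replicate numbers are not said to mark a culture or day. Deviations of same-numbered libraries had correlations across genes of 0.51 to 0.59 among dTAG-13, GSI and the combination, and of -0.37 to -0.14 between DMSO and each of these. With the replicate block the averaged dTAG-13 effect called 2 members, CD5 and CD4 (CD4 log2 fold change 0.41, SE 0.07, adjusted p = 0.00932), and CD38 passed in GSI against DMSO (adjusted p = 0.00262) and in the combination against dTAG-13 (adjusted p = 0.0108). CD2 passed in the combination against DMSO (adjusted p = 0.0169) and against dTAG-13 (adjusted p = 0.0259), and no member lost its call. With the DMSO numbers crossed in the block, a setting chosen after seeing the data, called members numbered 6 in the combination against DMSO, 5 in the combination against dTAG-13, 1 in dTAG-13 against DMSO and 3 for the averaged dTAG-13 effect, while calls over all genes went from 205 to 1191, 189 to 1434, 3 to 94 and 78 to 283.

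Values near 0 changed sign when 1 library was left out (log2 fold changes over the libraries left out in turn). GSI against DMSO ran from -0.40 to 0.045 for CD4, -0.0095 to 0.083 for CD5, -0.090 to 0.032 for CD6 and -0.079 to 0.17 for CD99. The averaged GSI effect ran from -0.32 to 0.034 for CD4, -0.053 to 0.0082 for CD6 and -0.014 to 0.11 for CD99. The combination against DMSO ran from -0.093 to 0.60 for CD4 and -0.049 to 0.20 for CD99. The combination against dTAG-13 ran from -0.43 to 0.26 for CD4, -0.054 to 0.031 for CD6 and -0.035 to 0.14 for CD99. The combination against GSI ran from -0.17 to 0.043 for CD2, -0.66 to 0.031 for CD38, -0.18 to 0.093 for CD7 and -0.064 to 0.13 for CD99. DTAG-13 against DMSO ran from -0.029 to 0.099 for CD2 and -0.10 to 0.14 for CD99. The averaged dTAG-13 effect ran from -0.065 to 0.039 for CD2 and -0.035 to 0.087 for CD99. The departure ran from -0.20 to 0.0083 for CD2, -0.14 to 0.0053 for CD28, -0.48 to 0.21 for CD38, -0.24 to 0.45 for CD4, -0.048 to 0.074 for CD6, -0.079 to 0.19 for CD7, -0.11 to 0.13 for CD99 and -0.13 to 0.051 for PTPRC.

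Over all genes, counts of calls moved by more than 1.5 times with no filter on low counts (660 against 272 for GSI against DMSO, 1815 against 1086 for the averaged GSI effect, 165 against 78 for the averaged dTAG-13 effect) and with the replicate block (559, 1822 and 135). For the combination against DMSO, 205 genes became 532 and 413 under these settings, and for the combination against dTAG-13, 189 became 563 and 476. In the fit of the compared libraries alone, dTAG-13 against DMSO went from 3 to 77 genes, the setting in which CD5 was called, the combination against dTAG-13 from 189 to 96 and the combination against GSI from 9 to 4. With DESeq2, without the filter and with the replicate block, dTAG-13 against DMSO gave 23, 51 and 23 genes and the combination against GSI 23, 59 and 34. With the crossed block, GSI against DMSO gave 1581 genes, the averaged GSI effect 3221 and the combination against GSI 103. With 2 libraries a group, differences as small as that of CD28 depended on single libraries. The member with the fewest reads, CD38, had at least 321 in each library, and its SE of 0.13 for the averaged effects was larger than those of all members but CD4; the part of depth in these errors was not tested. Only transcripts were measured, and surface protein and PTPRC isoforms were not.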

Other observations

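Relatives of the members were described as a further list. Of 16 tested, 1 rose with GSI on average and 1 fell, where 3.38% of all genes were called higher and 3.56% lower. They were LY9, a SLAM family receptor related to CD2 (0.59, SE 0.10, adjusted p = 0.00391), and PTPRU, a receptor-type phosphatase like PTPRC (-0.27, SE 0.07, adjusted p = 0.0497). LY9 fell with dTAG-13 on average (-0.58, SE 0.10, adjusted p = 0.0264), with means of 8.59 CPM with DMSO, 5.21 with dTAG-13, 11.8 with GSI and 8.59 with the combination. It was the 1 relative called with dTAG-13, where 0.422% of all genes were called lower. Outside the T lineage lists, PRF1, the pore-forming perforin of cytotoxic cells, rose with GSI (0.52, SE 0.09, adjusted p = 0.00501).

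Among 10220 other genes whose mean reached 5 CPM, those most like each called member over the 8 libraries, by Pearson's r of log2 CPM, were as follows, as a description. PTPRC was most like SLFN5 (0.99), AKNA (0.99) and SV2A (0.99). CD2 was most like CD79A (0.99), FAM64A (0.99) and C4orf33 (0.98). CD38 was most like LRP10 (0.99), TRAF1 (0.98) and C20orf112 (0.98). CD7 was most like GNPDA1 (0.99), ACY3 (0.99) and ALG3 (0.99), CD28 most like C2orf49 (0.97), TTI1 (0.97) and FAM120A (0.97), and CD5 most like KCTD1 (1.0), GLDC (0.97) and NDFIP2 (0.97). These values are the highest of many, and the 8 libraries share 4 treatments.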
